A study of Mus musculus with 4 samples.

Results

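The integrated stress response genes described here are 34 genes listed by symbol: the transcription factors ATF4 and CHOP with their relatives, the enzymes that make serine, asparagine and proline, amino acid transporters, and stress feedback genes. The genes are listed by name and no measured value enters the rule, but the list was drawn up with earlier results of these data known. Of the 34, 33 had a row among the 21523 genes of the deposited table, and Vldlr was not analysed here. A mean of at least 1 FPKM (fragments scaled to exon length and library size) over the libraries was needed to enter the test, and 32 members passed it. The exception was Cbs. Messenger RNA was sequenced in Raw264.7 cells, a mouse macrophage line, kept in DMEM with 10% fetal bovine serum and antibiotics. The control group held 2 libraries of cells with no treatment, and the 1,5-AG group held 2 libraries of cells given 1,5-anhydroglucitol (1,5-AG) at 0.5 mM for 24 h. 1,5-AG is a natural polyol that resembles glucose but lacks its anomeric hydroxyl group. A single cell line was used, and a culture time for the controls is not given. Nothing says that the 2 libraries of a group came from separate cultures, so the spread behind every p-value may be technical.

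In the integrated stress response, kinases that sense unfolded protein in the endoplasmic reticulum, amino acid shortage, double-stranded RNA or lack of haem phosphorylate the translation factor eIF2. Most translation then slows, while upstream reading frames in the Atf4 message let more ATF4 protein be made. ATF4 binds C/EBP-ATF response elements, often with a C/EBP partner, and switches on genes that supply amino acids, together with CHOP and with feedback genes that restore translation. Because much of the control of ATF4 is translational, its RNA level is not a measure of its protein.

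Genes received 15152187 and 16216566 fragments in control and 14605854 and 15101812 fragments in treated cells. For 2 kb of exon, 3 fragments amount to 0.0924 to 0.103 FPKM here, and this floor covers counting error only. Of 10 macrophage markers 9 were present, with at least 6.87 FPKM in every library, and their sum was 5853 to 6033 FPKM in control and 4396 to 4520 FPKM with 1,5-AG. The lysozyme gene Lyz2, which fell (4488 ± 92.9 to 3048 ± 66.9 FPKM, limma adjusted p = 0.0169), made up most of that difference, and its part in the results below was not tested. In RNA from whole cultures, fewer cells of a kind and less RNA per cell cannot be told apart. Of 27 markers of other cell types 7 had a row, and none exceeded 0.394 FPKM in any library. Their sum was 0.644 to 0.647 FPKM in control and 0.564 to 0.620 FPKM with 1,5-AG. Mitochondrially encoded genes took 2.86% to 2.98% of fragments in control and 2.69% to 2.89% with 1,5-AG.

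Most members were slightly more abundant with 1,5-AG. Asns, which makes asparagine, rose, and the transcription factor gene Atf3 fell. These were 2 of the 32 tested members with a limma adjusted p below 0.05, against 1.46% of the 11120 genes tested (162 genes, 0.809% higher and 0.647% lower). The log2 fold changes were positive in 29 of 32 members, with a median of 0.21 on the log2(FPKM + 1) scale, while over all genes tested 49.1% were positive and the median was -0.00. Both 1,5-AG libraries lay above both control libraries in 26 members and below both in 2 (24.2% and 25.4% of genes tested, 49.6% in either direction), and the groups overlapped in 4. An unadjusted p under 0.05 was found for 19 members (18.2% of genes tested), of which 18 were higher (9.15%). The summed level of the 33 members in the table was 1303 and 1284 FPKM in control and 1485 and 1472 FPKM with 1,5-AG, a gain of 14.3%.

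The count of calls depended on the test and on each library. With voom, a weighted limma fit on the fragment numbers recovered from the FPKM values, 14 members were higher and 1 was lower, against 3.64% and 4.66% of 11118 genes (405 and 518 genes). Voom thus called 8.3% of genes, 923 in all. It pooled variance over genes more strongly than the limma fit, so its smaller p-values are not evidence of larger differences. The 14 were Atf4, Nupr1, Eif4ebp1, Phgdh, Psat1, Psph, Mthfd2, Aldh1l2, Asns, Aldh18a1, Gpt2, Got1, Slc7a5 and Slc1a5, and the lower one was Atf3. In limma fits without control replicate 1, control replicate 2, 1,5-AG replicate 1 or 1,5-AG replicate 2, 0 members passed. In these fits 15 to 17 members and 1421 to 1694 of all genes had an unadjusted p under 0.05. The same fits called 0.027%, 0.018%, 0.018% and 0.099% of all genes, in that order. Several members lay just outside the threshold of the limma test: Atf4 had an adjusted p of 0.0504, Psph of 0.0512, Mthfd2 of 0.0598 and Psat1 of 0.0642.

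**Figure D1:**
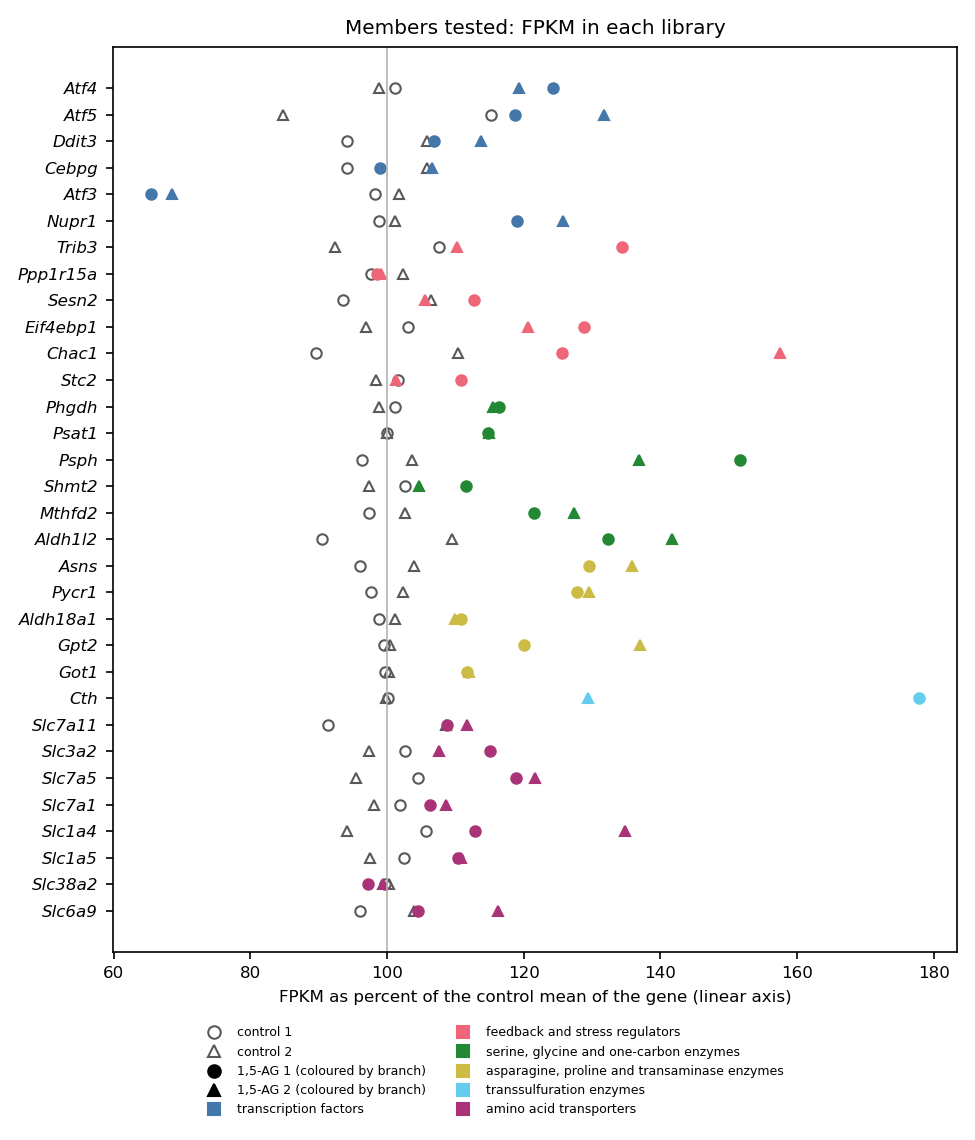
FPKM of the 32 tested members in each library, as a percent of the control mean of the same gene on a linear axis. Open symbols are the control libraries, filled symbols the 1,5-AG libraries coloured by branch, circles replicate 1 and triangles replicate 2. In 26 members both filled symbols lie to the right of both open ones, and in Atf3 both lie far to the left.

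The promoters of the members were searched for the C/EBP-ATF response element by which ATF4 acts, spelled TGATGNAA or, on the other strand, TTNCATCA. RefSeq promoters of build GRCm38.p6, from 250 bases before to 50 bases after the start, were found for 28 of the 33 members, and 9 of these (32.1%) held a match. Among all 27025 genes with a promoter in the RefSeq table the share was 4.51%, among the 7819 of these that were tested it was 2.58%, and over all 32851 promoters it was 3.97%. Many members were listed because they are known ATF4 targets, so their share is not independent of how they were chosen. A match is a run of letters and not a shown binding site, and elements outside this window were not searched.

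The 250 bases before the start are shown for Asns and Atf3, the members that passed the limma test in opposite directions, and both hold the element. The starts used by RefSeq for Atf3, and for Nupr1 below, lie well inside the GENCODE genes. These reach further upstream, to base 191218039 for Atf3 and 126630861 for Nupr1. Lines run 5′ to 3′ on the strand of the gene, and capitals mark the match.
Asns (chr6:7693210-7693459, minus strand): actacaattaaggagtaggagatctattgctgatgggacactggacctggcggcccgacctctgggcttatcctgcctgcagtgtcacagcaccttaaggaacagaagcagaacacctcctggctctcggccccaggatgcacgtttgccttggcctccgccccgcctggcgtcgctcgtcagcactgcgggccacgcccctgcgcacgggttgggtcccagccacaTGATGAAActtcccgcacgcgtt
Atf3 (chr1:191183334-191183583, minus strand): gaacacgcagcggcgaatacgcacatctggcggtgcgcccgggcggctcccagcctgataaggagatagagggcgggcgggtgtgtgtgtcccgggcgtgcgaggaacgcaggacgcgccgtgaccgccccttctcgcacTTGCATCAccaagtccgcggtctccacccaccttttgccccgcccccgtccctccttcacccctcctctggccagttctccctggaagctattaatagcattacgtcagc
For the tested members with the next smallest p-values, 20 bases on each side of the match are shown, so that the shared letters can be compared.
Nupr1 (chr7:126625553-126625600, minus strand): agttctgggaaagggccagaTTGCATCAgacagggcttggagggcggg
Got1 (chr19:43524680-43524727, minus strand): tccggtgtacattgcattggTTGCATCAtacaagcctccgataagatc
Chac1 (chr2:119351029-119351076, plus strand): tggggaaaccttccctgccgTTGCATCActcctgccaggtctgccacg
Pycr1 (chr11:120643824-120643871, minus strand): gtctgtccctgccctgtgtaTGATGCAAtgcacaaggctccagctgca
Slc7a11 was added after its sequence was seen, because it alone among the 9 held the element on both strands.
Slc7a11 (chr3:50443633-50443699, minus strand): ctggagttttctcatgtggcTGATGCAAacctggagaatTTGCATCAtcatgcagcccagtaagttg

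Of the 10 matches in these 9 promoters, 8 read TGATGCAA on one strand or the other, whereas Asns has TGATGAAA and Trib3 has TTACATCA. Their first bases lay from -193 in Chac1 to 15 in Trib3, counted from the start. Atf3 and Nupr1 hold the same 8 letters at the same distance of -110 on the same strand, with log2 fold changes of opposite sign, -0.53 and 0.27 (the second not past the limma threshold). Tested members with a match had a median log2 fold change of 0.24 (9 genes, from -0.53 to 0.40, 8 positive). Those with a promoter but no match had 0.13 (18 genes, from -0.02 to 0.49, 16 positive). Over all tested genes the medians were 0.02 with a match (202 genes) and -0.01 without, and 2.48% of genes with a match passed the test. No test was made of these differences.

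**Figure D2:**
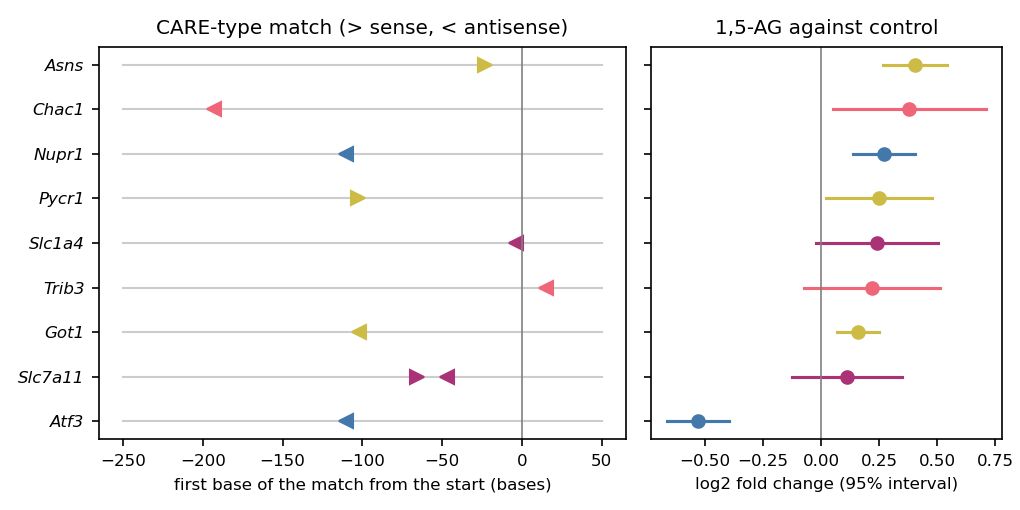
Left, position of each match to the response element in the 9 member promoters that hold one, as bases from the start, with the symbol pointing along the strand of the match. Right, log2 fold change of the same genes with its 95% interval, colours being those of the branches, from -0.53 for Atf3 to 0.40 for Asns.

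Among the 6 transcription factor genes, Atf3 fell and 0 rose in the limma test, and voom called 2 higher and 1 lower. Over all genes tested, 0.809% rose and 0.647% fell with limma, and voom called 3.64% higher and 4.66% lower. These shares, and 18.2% at an unadjusted p under 0.05 (9.15% higher), stand beside the counts by branch below. Atf3 encodes a stress-induced bZIP factor that ATF4 activates and that represses many inflammatory genes in macrophages. It was at 13.4 and 13.9 FPKM in control and at 8.93 and 9.34 FPKM with 1,5-AG, backed by 437 and 485 fragments against 281 and 304. Both treated libraries lay well below both controls. The log2 fold change was -0.53 (SE 0.05, limma adjusted p = 0.0274), and 1.2% of tested genes had a lower one. The limma call ended with no filter on low values (adjusted p = 0.102), without the variance trend (adjusted p = 0.0909) and without any 1 of the libraries (adjusted p from 0.103 to 0.132), while voom gave an adjusted p of 0.000474. Atf3 lies on chromosome 1 (191170296 to 191218039, mm10).

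Atf4 itself was the third most abundant member, at 118 and 115 FPKM in control and 145 and 139 FPKM with 1,5-AG. The groups did not overlap. Its mean went from 116 ± 1.96 to 142 ± 4.11 FPKM (SD, n = 2 per group throughout), and the log2 fold change of 0.28 (SE 0.04, 95% interval 0.18 to 0.38) did not pass the limma test (adjusted p = 0.0504), but passed under voom (adjusted p = 0.000129). Atf4 lies on chromosome 15 (80255184 to 80257541). Ddit3, the gene of the pro-apoptotic factor CHOP, was at 4.89 and 5.50 FPKM in control and 5.55 and 5.91 FPKM with 1,5-AG. The lowest treated value was only just above the highest control. The log2 fold change was 0.12 (SE 0.08, 95% interval -0.08 to 0.32, limma adjusted p = 0.481). Of its exon bases 6.13% overlap a second gene entry also named Ddit3 on the same strand, for which no level was available. How reads in that stretch were counted is not given. Of the exon bases 3.97% overlap Mars on the opposite strand (73.8 FPKM), and without a stated strand setting the value of Ddit3 is uncertain.

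Nupr1, a small chromatin-associated stress protein, was at 11.2 and 11.5 FPKM in control and 13.5 and 14.3 FPKM with 1,5-AG (0.27, limma adjusted p = 0.0908, voom adjusted p = 0.0375). Atf5, an ATF4 relative that is also under translational control, spread widely in control, at 11.1 and 8.16 FPKM, against 11.4 and 12.7 FPKM with 1,5-AG (0.31, limma adjusted p = 0.335). It is uncertain in the same way, since 4.11% of its exon bases overlap Nup62 on the opposite strand (60.0 FPKM). Cebpg, a C/EBP partner of ATF4, overlapped between groups, at 9.86 and 11.1 FPKM against 10.4 and 11.2 FPKM. Its log2 fold change of 0.04 turned negative without control replicate 1 (-0.04) and without 1,5-AG replicate 2 (-0.01).

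Of the 6 tested feedback and stress regulators 0 passed the limma test, 2 had an unadjusted p under 0.05, and voom called 1 higher. Eif4ebp1 encodes 4E-BP1, which holds back cap-dependent translation. It was at 46.7 and 43.9 FPKM in control and 58.4 and 54.7 FPKM with 1,5-AG. The groups stood apart, and the log2 fold change was 0.31 (SE 0.05, limma adjusted p = 0.0777, voom adjusted p = 0.000839). Chac1 encodes an enzyme that degrades glutathione and is a CHOP and ATF4 target. It was at 2.42 and 2.97 FPKM in control and 3.39 and 4.24 FPKM with 1,5-AG, backed by 60 and 79 fragments against 81 and 105. Its change of 41.5% in mean FPKM was among the largest of the members, and the interval was wide (log2 fold change 0.38, 95% interval 0.05 to 0.71, limma adjusted p = 0.222).

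Trib3, a pseudokinase induced by ATF4 and CHOP, had 3.04 and 2.61 FPKM in control and 3.80 and 3.11 FPKM with 1,5-AG (0.22, limma adjusted p = 0.397). The other three overlapped between groups. Ppp1r15a, which encodes GADD34, the inducible phosphatase subunit that reverses eIF2 phosphorylation, had 5.70 and 5.98 FPKM against 5.75 and 5.79 FPKM. Its log2 fold change was -0.01 (95% interval -0.17 to 0.14), and its sign was positive with the trend on GC content and length removed (0.01). Sesn2, a leucine sensor that restrains mTORC1, had 4.12 and 4.68 against 4.96 and 4.65 FPKM (0.11), and Stc2, a secreted glycoprotein, had 4.18 and 4.05 against 4.56 and 4.17 FPKM (0.07).

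The enzymes of serine, glycine and one-carbon metabolism were the most abundant branch. Against 24.2% of all genes tested, both treated libraries lay above both controls in all 6. Their summed level was 568 and 559 FPKM in control and 650 and 637 FPKM with 1,5-AG, a gain of 14.3%. In the limma test 0 of 6 passed, 5 had an unadjusted p under 0.05, and voom called 5 higher. Psph, the phosphatase that completes serine synthesis, was at 10.7 and 11.5 FPKM in control and 16.8 and 15.2 FPKM with 1,5-AG. On the log2(FPKM + 1) scale this was the highest log2 fold change of the 32 tested members, at 0.49 (SE 0.07, limma adjusted p = 0.0512, voom adjusted p = 6.08e-05). Of tested genes 98.2% had a lower one. Of its exon bases 10.4% overlap the chaperonin gene Cct6a on the opposite strand (107 FPKM, log2 fold change 0.12), and since the strand setting of the counting is not given, its value is uncertain.

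Mthfd2, the mitochondrial folate dehydrogenase and cyclohydrolase, was at 48.3 and 50.9 FPKM in control and 60.3 and 63.2 FPKM with 1,5-AG. The groups did not overlap (0.31, SE 0.05, limma adjusted p = 0.0598, voom adjusted p = 0.000170). Phgdh, which catalyses the committed step of serine synthesis, went from 111 ± 1.84 to 128 ± 0.757 FPKM (0.21, limma adjusted p = 0.0694), and Psat1, the transaminase that follows it, from 179.9 ± 0.0946 to 207 ± 0.343 FPKM (0.20, limma adjusted p = 0.0642). The replicates of Psat1 were almost identical in each group. Aldh1l2, a mitochondrial formyl-tetrahydrofolate dehydrogenase, went from 6.05 ± 0.814 to 8.29 ± 0.400 FPKM (0.40, limma adjusted p = 0.126, voom adjusted p = 0.000926), with 14.1% of its exon bases overlapped by D10Wsu102e on the opposite strand (1.04 FPKM). Shmt2, the mitochondrial serine hydroxymethyltransferase and the most abundant member, moved least in this branch, from 206 ± 7.56 to 222 ± 9.92 FPKM (0.11, limma adjusted p = 0.317).

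In the branch of asparagine, proline and transaminase enzymes 1 of 5 members passed the limma test, all 5 had an unadjusted p under 0.05, and voom called 4 higher. Asns, the asparagine synthetase gene and a classical ATF4 target, was at 58.6 and 63.4 FPKM in control and 79.1 and 82.9 FPKM with 1,5-AG, from 2430 and 2816 fragments against 3161 and 3427. Both treated libraries exceeded both controls by a margin larger than the spread within either group. Asns rose by 32.7% in mean FPKM (log2 fold change 0.40, SE 0.05, limma adjusted p = 0.0461, voom adjusted p = 1.41e-05). The limma call ended under quantile normalization (0.35, adjusted p = 0.0855), with no filter on low values (adjusted p = 0.155), without the variance trend (adjusted p = 0.123) and without any 1 of the libraries (adjusted p from 0.111 to 0.165). Asns lies on chromosome 6 (7675169 to 7693254).

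Got1, the cytosolic aspartate transaminase, had tight replicates at 63.7 and 64.0 FPKM in control and 71.3 and 71.5 FPKM with 1,5-AG. The difference was small but well outside the replicate spread (0.16, SE 0.03, limma adjusted p = 0.110, voom adjusted p = 0.0334). Aldh18a1, which starts proline synthesis from glutamate, went from 50.9 ± 0.846 to 56.2 ± 0.298 FPKM (0.14, voom adjusted p = 0.0484). Pycr1, which finishes it in mitochondria, went from 1.97 ± 0.0656 to 2.54 ± 0.0247 FPKM (0.25) and did not pass under voom (adjusted p = 0.168). Gpt2, the mitochondrial alanine transaminase, went from 6.59 ± 0.0433 to 8.47 ± 0.795 FPKM (0.32, voom adjusted p = 0.00677). With limma these 3 genes had adjusted p-values of 0.153, 0.237 and 0.125.

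The transsulfuration enzymes, which make cysteine from homocysteine, were scarce. Cth, the cystathionine gamma-lyase gene, was at 1.394 and 1.391 FPKM in control and 2.48 and 1.80 FPKM with 1,5-AG, from 59 and 63 fragments against 101 and 76. The control libraries coincided and the treated libraries differed from each other by more than the lower of them differed from control. The mean was higher by 53.6%, the largest relative difference among the members, and did not pass (log2 fold change 0.38, SE 0.14, limma adjusted p = 0.250, voom adjusted p = 0.110). Under voom the log2 fold change of Cth was 0.59, above the 0.53 of Psph. Cbs, the preceding enzyme of the route, had few fragments, 10 and 13 against 9 and 11, which is 0.0881 and 0.107 FPKM against 0.0823 and 0.0972 FPKM. It was not tested.

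The amino acid transporters had the smallest median log2 fold change of the branches with several members, 0.13, and a summed level of 319 and 307 FPKM in control against 340 and 342 FPKM with 1,5-AG. In the limma test 0 of 8 passed, 3 had an unadjusted p under 0.05, all of them higher, and voom called 2 higher. Slc7a5, the light chain of the LAT1 leucine exchanger, was at 58.7 and 53.7 FPKM in control and 66.8 and 68.4 FPKM with 1,5-AG. The groups stood apart (0.26, SE 0.05, limma adjusted p = 0.0995, voom adjusted p = 0.000889). Its heavy chain Slc3a2, which also carries the cystine transporter, was at 50.8 and 48.1 FPKM against 56.9 and 53.2 FPKM (0.15, limma adjusted p = 0.230, voom adjusted p = 0.0606). Slc1a5, the ASCT2 glutamine transporter, was at 86.3 and 82.1 FPKM in control and 93.0 and 93.3 FPKM with 1,5-AG (0.14, limma adjusted p = 0.168, voom adjusted p = 0.0273).

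Slc7a11, the cystine-importing partner of Slc3a2, was at 2.99 and 3.55 FPKM in control and 3.56 and 3.65 FPKM with 1,5-AG (0.11, 95% interval -0.13 to 0.35). Its second control library nearly equalled the lower treated one. Slc38a2, the SNAT2 transporter and an amino acid starvation marker, was abundant and close to level, at 85.1 and 85.6 FPKM in control and 83.0 and 84.8 FPKM with 1,5-AG (log2 fold change -0.02, 95% interval -0.11 to 0.07). The upper end of the interval was 0.07, but the interval rests on a spread that may be technical and does not bound the gain between cultures. Slc7a1, a cationic amino acid transporter, had 0.10, Slc1a4, the ASCT1 serine and alanine transporter, 0.24, and Slc6a9, the glycine transporter GLYT1, 0.11, with limma adjusted p-values of 0.317, 0.309 and 0.541. Of the exon bases of Slc6a9 27.8% overlap Ccdc24 on the opposite strand, which was at 0.0218 FPKM.

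**Figure D3:**
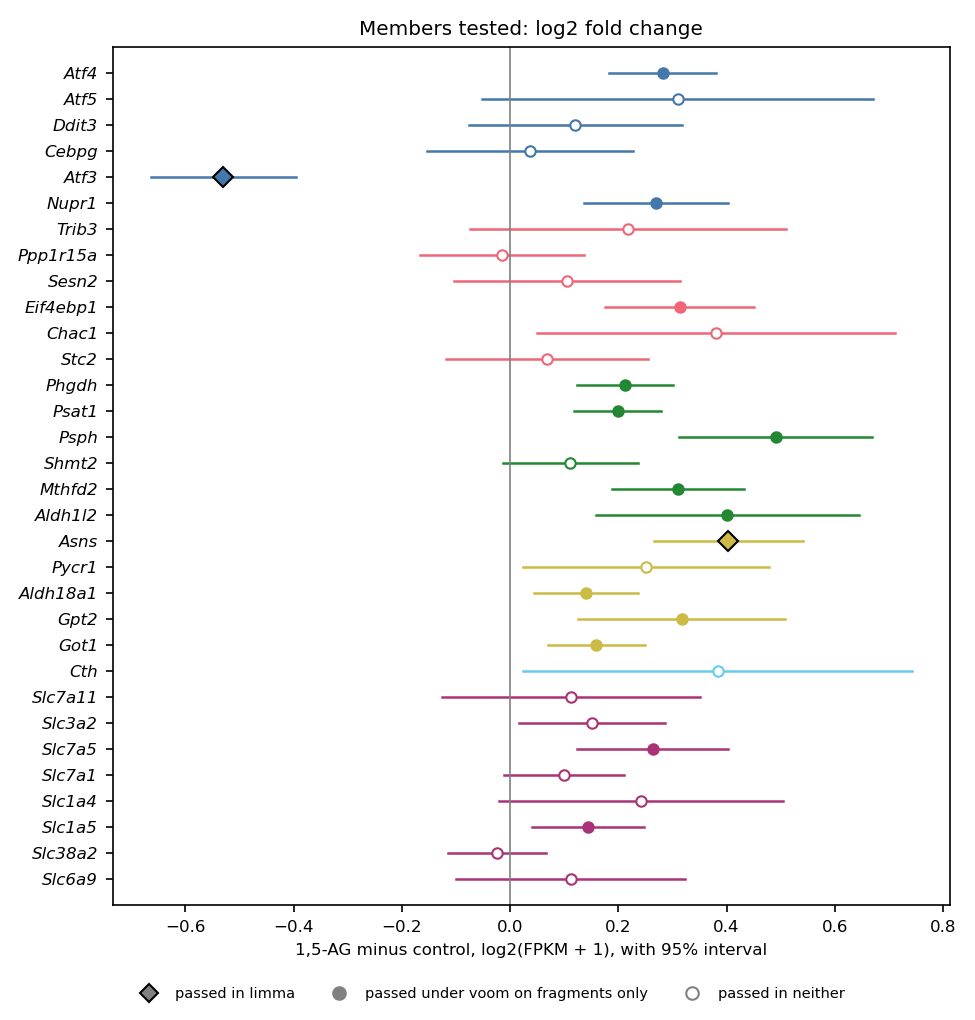
Log2 fold change of each tested member with its 95% interval, on the log2(FPKM + 1) scale, as 1,5-AG minus control. Blue stands for transcription factors, red for feedback and stress regulators, green for serine, glycine and one-carbon enzymes, yellow for asparagine, proline and transaminase enzymes, light blue for transsulfuration and purple for transporters. Diamonds mark the 2 members that passed the limma test (Asns at 0.40 and Atf3 at -0.53), filled circles those that passed under voom only, and open circles those that passed in neither.

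Levels within the list ranged widely in control, from 206 FPKM for Shmt2 to 0.0976 FPKM for Cbs. After Shmt2 came Psat1, Atf4 and Phgdh, of which Atf4 (116 ± 1.96 FPKM) and Phgdh (111 ± 1.84 FPKM) were close neighbours, and then Slc38a2 (85.3 ± 0.299 FPKM) and Slc1a5 (84.2 ± 2.93 FPKM), which lay within the replicate spread of each other. The CHOP gene ranked 23 of 33 and Trib3 29. The tested members had a median of 11.2 FPKM in control, against 8.88 FPKM over all genes tested, and a median SE of 0.0566 against 0.0677. The shares over all genes were not matched to the members by level. Their median exon length was 3508 bases against 3972, and the median GC content of the longest transcript was 52.3% against 49.2%. The 33 genes lie on 13 chromosomes, 5 of them on chromosome 7 and 4 on chromosome 19. Ddit3 and Shmt2 lie 220835 bases apart on chromosome 10. The plot of all tested genes by level shows where the members fall.

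**Figure D4:**
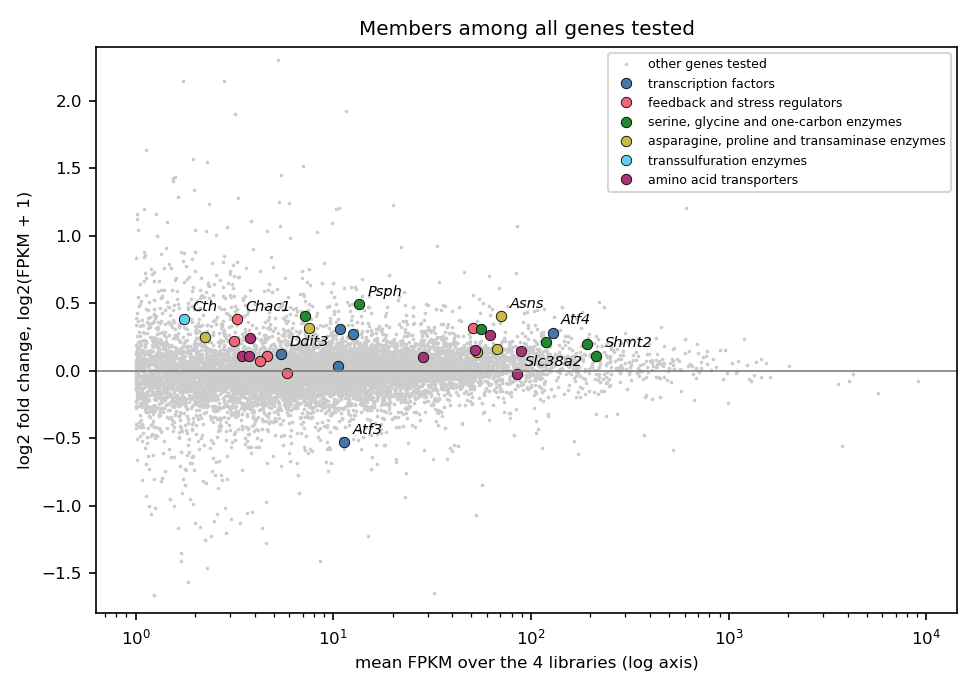
Log2 fold change against mean FPKM over the 4 libraries (log axis) for the 11120 genes tested, in grey, with the 32 tested members coloured by branch. The members lie mostly just above 0 at all levels, inside the cloud of other genes, and Atf3 lies near its lower edge at -0.53.

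Upstream of ATF4, all 8 genes of the eIF2 kinases and their adaptors had negative log2 fold changes. They ran from -0.17 to -0.03 with a median of -0.09, and 0 passed with limma (2 had an unadjusted p under 0.05) or with voom. Of all genes tested 49.1% were positive, and 18.2% had an unadjusted p under 0.05 (9.15% higher). Limma called 0.809% of them higher and 0.647% lower, and voom called 3.64% higher and 4.66% lower. The same shares stand beside the counts of the lists below. Eif2ak3, the gene of the endoplasmic reticulum kinase PERK, was at 5.93 and 5.93 FPKM in control and 5.23 and 5.29 FPKM with 1,5-AG (-0.15, limma adjusted p = 0.274). Eif2ak1, the haem-regulated kinase HRI, was at 12.6 and 12.8 FPKM against 11.6 and 11.6 FPKM (-0.12, limma adjusted p = 0.269). Eif2ak4, the amino acid sensor GCN2, had -0.09 and Eif2ak2, the RNA-activated kinase PKR, -0.07. RNA levels do not show kinase activity. A list of 14 genes held those for eIF2, its exchange factor eIF2B and its phosphatases, and the separate factors Eif2a and Eif2d. Of the 14 genes 11 were positive, with a median of 0.08. With limma 0 of them passed (4 higher at an unadjusted p under 0.05), and voom called 2 higher, Eif2s2 (0.20) and Eif2s3x (0.14).

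Further targets of ATF4 or CHOP were mixed. Of 22 tested, 14 were positive, and the median was 0.07. With limma 2 rose and 0 fell, and voom called 8 higher and 3 lower. Ddit4, an inhibitor of mTORC1 that also responds to hypoxia, was at 3.64 and 3.41 FPKM in control and 5.54 and 6.15 FPKM with 1,5-AG. It rose by 0.60 on the log2 scale (SE 0.08, limma adjusted p = 0.0454). Ero1l, an oxidase of the endoplasmic reticulum, was at 28.0 and 29.1 FPKM in control and 35.4 and 36.6 FPKM with 1,5-AG and rose by 0.32 (SE 0.04, limma adjusted p = 0.0490). The stress gene Sqstm1 (-0.14), the taurine transporter gene Slc6a6 (-0.15) and Txnip, a brake on glucose uptake (-0.17), were the 3 lower under voom, the log2 fold changes here being voom's.

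The cytosolic aminoacyl-tRNA synthetases, which charge tRNAs and include many ATF4 targets, mostly had positive differences. Of 20 tested, 19 were positive with a median of 0.16, 0 passed with limma, 14 were higher at an unadjusted p under 0.05, and voom called 12 higher. Cars is among these and is also counted among the further targets above. Gars, the synthetase for glycine and the one with the smallest p, was at 89.3 and 90.8 FPKM in control and 107.6 and 112.5 FPKM with 1,5-AG (0.29, limma adjusted p = 0.0504). Nars, the synthetase for asparagine, was at 95.1 and 97.5 FPKM in control and 116 and 123 FPKM with 1,5-AG (0.31, limma adjusted p = 0.0510). Of 20 chaperones and ATF6 or XBP1 targets of the endoplasmic reticulum 17 were positive, with a median of 0.15. With limma 3 rose and 0 fell, and voom called 11 higher and 1 lower. Those that rose were Pdia4 (0.28), a disulfide isomerase, Creld2 (0.44), a secreted stress-response protein, and Hspa5 (0.24), the chaperone BiP, with limma adjusted p-values of 0.0421, 0.0425 and 0.0457. The one lower under voom was Atf6, a stress sensor of the same compartment (voom log2 fold change -0.19).

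Other genes of amino acid and folate metabolism had medians nearer to 0 than the members, as had the further targets above. Of 13 folate cycle enzymes 12 were positive, with a median of 0.07. With limma 0 passed (4 higher at an unadjusted p under 0.05). Voom called 3 higher, Shmt1 (0.24), Mthfd1l (0.16) and Gcsh (0.22), these log2 fold changes being voom's. Among 13 amino acid transporters outside the list 5 were positive, and the median was -0.02. With limma 0 passed (2 higher and 2 lower at an unadjusted p under 0.05), and voom called 2 higher and 2 lower. Of these Slc7a8, a relative of Slc7a5, had the smallest p, at 4.88 and 4.04 FPKM in control and 6.60 and 6.61 FPKM with 1,5-AG (0.48, limma adjusted p = 0.0871). Of 17 genes of amino acid breakdown and transamination 7 were positive, with a median of -0.01. With limma 0 passed, and 2 were higher and 1 lower at an unadjusted p under 0.05, against 18.2% of all genes tested. Voom called Bcat1 and Oat higher, against 3.64% of all genes. Differences between these lists and the members were not tested.

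**Figure D5:**
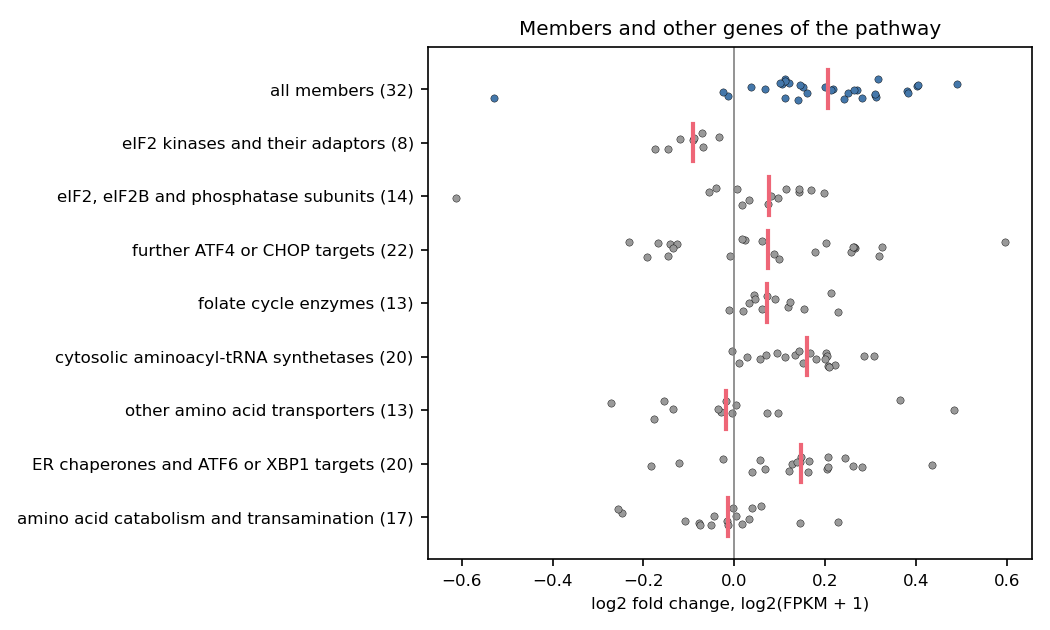
Log2 fold change of every tested gene in the member list and in 8 lists of other genes of the pathway, 1 point per gene with the number of genes in brackets and a bar at the median. Cars is plotted both among the further targets and among the synthetases. Medians run from -0.09 for the eIF2 kinases and their adaptors to 0.21 for the members, and the point near -0.61 in the eIF2 and phosphatase list is Ppp1ca.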

How the data were processed

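Total RNA of 4 samples, 2 control and 2 with 1,5-AG, was made into libraries with a stranded mRNA kit, per the labels' protocols. The values the authors deposited are FPKM, 1 column per library. Trimmomatic, HISAT2, HTSeq, Cufflinks and the build mm10 are named, per the submitters' processing notes. Not given in the sources used here are their versions and roles, the strand setting and the annotation. Of 21523 identifiers 21508 matched GENCODE release M21 on the same build, which gave symbols, exon lengths and coordinates. FPKM multiplied by exon length was divided, in each library, by the value of a single fragment, estimated from the same values. The result came out whole in all 4 libraries for 99.2% of genes (tolerance 0.02 fragments), which gave fragment numbers and depth. How reads shared by near-identical copies were counted is not given.

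Group differences were tested here on log2(FPKM + 1) by limma 3.58.1 (R 4.3.3). The model held the group alone, variances followed a trend on level, and 11120 genes with a mean of at least 1 FPKM entered. Tests were two-sided with Benjamini-Hochberg adjustment over all of them. Of rows sharing a symbol the most abundant was kept, which left out 8. Fold changes on this scale understate the change of low genes. An exact permutation of 2 against 2 libraries cannot go below p = 0.333, so single genes rest on the variance pooled by limma (3.05 prior degrees of freedom). Voom used the recovered fragments. For Atf4 it gave a log2 fold change of 0.284 with an SE of 0.0417, against 0.282 with an SE of 0.0389 in limma. The smaller voom p of Atf4 thus came from stronger pooling of variance over genes, not from a larger difference. The fit was also run on simulated fragments with the same dispersion for every gene, and that outcome is not used here.

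The members, the branches, the pathway lists and the tests were chosen with earlier results of these data known. Values per library are given for members past the threshold, Atf4, Ddit3 and the 2 members of each branch with the smallest p, with the others more briefly, some of them also per library. Of the other lists, members past the threshold or with the smallest p are named, while genes called by voom, the other eIF2 kinases and Nars were named after their values were seen. The alternatives are listed in the closing section.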

Additional observations from a re-analysis of the deposited data

How the results depend on the processing

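The number of members past the threshold, 2 in the limma fit, was 0 with no filter for low genes (17 at an unadjusted p under 0.05), 8 when a mean of 5 FPKM was required, 1 under quantile normalization, 0 without the variance trend (18 of 32 members, and 1853 of 11120 genes, at an unadjusted p under 0.05), 4 with the trend on GC content and length removed and 15 with voom. The number over all genes, 162, was 0, 360, 141, 5, 169 and 923 in the same order, with 2628 genes at an unadjusted p under 0.05 where it was 0. With 1 library left out it was 2 to 11, and 0 to 0 for members; the lone sample of a group is then assumed to vary like the other group. The median of the tested members, 0.21, was 0.16 under quantile normalization, 0.22 with median-ratio scaling, 0.22 after removal of the GC and length trend, and 0.19 to 0.21 with 1 library left out. The replicate block gave 310 genes and 7 members, or 135 genes and 4 members with a member median of 0.22 when the GC and length trend was removed too. Across genes, the deviations of libraries with equal numbers had a correlation of 0.0124, and the samples were not taken as paired. A pseudocount of 0.1 left the member count at 2. Of 439 refits of single members 393 kept their sign and side of the threshold, 13 lost it, 28 gained it and 5 changed sign. The sign changes were in Cebpg (-0.0401 to 0.115 with 1 library left out, the other negative value being -0.0120) and Ppp1r15a (0.0103 with the GC and length trend removed, with or without the replicate block, and -0.0436 to 0.0147 with 1 library left out). For all these shifts the cause was not tested.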

Other observations

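Ppp1ca, a catalytic subunit that works with the GADD34 protein, was at 11.8 FPKM in control replicate 2 (483 fragments) and at 3.87 to 4.21 FPKM in the other 3 libraries (148 to 157 fragments). It was chosen after its values were seen, and its negative log2 fold change of -0.61 rests on that library.

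Every row kept after the 8 rows with a repeated symbol were left out had a value above 0 in at least 1 library.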
